A study of Rattus norvegicus with 18 samples.

Results

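The spliceosome genes described here are the 129 genes of rat nucleus pulposus, or NP, the soft centre of an intervertebral disc, whose KEGG annotation in the deposited gene table names the pathway Spliceosome. The table lists 18923 genes, and 133 of its rows carry the term. The 4 of these whose names start with Hsp (Hspa2, Hspa8, Hspa1l and Hspa1b) were left out. All 129 remaining genes reached 1 FPKM, a level per length of transcript and per mapped fragment, in at least 3 of the 9 input libraries and were tested. In all 9 libraries 128 of them reached it. The exception, LOC108348108, is annotated in the table as heat shock 70 kDa protein 1A and stayed in because of its placeholder name. The member with the lowest mean was Magohb, which encodes a copy of an exon junction core protein, at 2.06 FPKM, and the member with the highest was the splicing factor gene Srsf5 at 254 FPKM.

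Tissue came from rats of 2, 10 and 20 months, with 3 input libraries per age, made from poly(A) RNA before the immunoprecipitation step of a study of N6-methyladenosine in RNA. The labels used here give the tissue, the age and the library kind, with no treatment, and name neither strain nor sex. Whether the libraries of an age are separate animals is not said, so a p-value measures the spread among libraries alone, and that spread may be technical. The immunoprecipitated libraries are not analysed here, so nothing is said of the methylation of these RNAs. The design asks how RNA levels and transcript use differ between the ages.

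The spliceosome removes introns from precursor RNA in ordered steps. The U1 particle binds the 5′ splice site, and U2AF, SF1-type proteins and the U2 particle bind the branch point and 3′ splice site. The tri-snRNP of U4/U6 and U5 then joins, the Prp19 complex and RNA helicases activate the catalytic centre, and second-step factors help join the exons. Each particle is built on a ring of Sm proteins, or of LSm proteins in U6. SR proteins bind exons and mostly favour their inclusion, hnRNP proteins often act against it, and the exon junction and export proteins mark and carry away the spliced RNA. These proteins are made in nearly all cells, NP cells included. In RNA from whole tissue, fewer cells of a type and less RNA per cell cannot be told apart.

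The libraries held 3.53 to 5.04 gigabases of alignments, an estimate from how coverage and FPKM relate. The lowest coverage of a member in any library was 0.566 reads per base for LOC108348108 and 6.57 for Magohb. The 20-month libraries stood apart from the others in ways that belong to no single gene. Their commonest read length was estimated at 141 bases, against 132 bases at both earlier ages. It was inferred from the bases on sparsely covered transcripts, and no label gives it. Of their bases 80.1 to 80.9% lay on listed transcripts, against 85.6 to 86.1% at the earlier ages. Ribosomal protein genes took 14.0 to 14.4% of the summed FPKM in the 2-month libraries, 16.4 to 16.6% in the 10-month and 20.4 to 21.0% in the 20-month libraries. Mitochondrial genes took 0.0868 to 0.111% of it in the 20-month libraries, against 0.456 to 0.690% at the earlier ages. These library differences cannot be told apart from age. NP and notochordal markers (9 tested of 13, none of those in the table at 0 in every library) summed to 22330.1 to 23466 FPKM (2 months), 18092 to 18271 (10 months) and 18494 to 18792 (20 months), so tested markers of the labelled tissue were present. The 9 averaged 7.71 to 4764 FPKM, so the sum follows the highest. By the test described below, 7 fell and 0 rose at 10 against 2 months, where 11.4% and 19.0% of all tested genes did. At 20 against 2 months 6 fell and 1 rose, where 49.6% and 18.6% did. Red blood cell markers (3 tested of 6) summed to 80.5 to 91.5 FPKM (2 months), 9.25 to 10.3 (10 months) and 35.2 to 41.4 (20 months). Skeletal muscle markers (4 tested of 7) summed to 22.7 to 24.2 FPKM (2 months), 14.9 to 16.9 (10 months) and 3.77 to 205 (20 months), where the highest library was replicate 3. Macrophage markers (3 tested of 6) summed to 14.8 to 15.6, 19.4 to 20.9 and 15.3 to 19.0 FPKM at the 3 ages, and osteoblast and osteoclast markers (2 tested of 6) to 16.6 to 17.2, 10.2 to 11.5 and 5.28 to 7.17 FPKM. Fat cell markers summed to at most 1.28 FPKM, endothelial markers to at most 0.247 and T and B cell markers to at most 0.170, and none of these was tested. The part of other cells in the results below was not tested.

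Added together, the spliceosome genes took a larger share of the summed FPKM at each later age. It was 0.913 to 0.918% in the 2-month libraries, 0.999 to 1.02% in the 10-month and 1.09 to 1.12% in the 20-month libraries, and these ranges did not overlap. Such a share follows the highest genes. From 2 to 20 months the mean sum went from 4087 to 4993 FPKM over all members. In the 11 SR and SR-like genes alone it went from 483 to 903. Each gene was tested with limma on log2(FPKM + 1) in a fit over all 11708 tested genes, and a gene was called where its p, adjusted by Benjamini and Hochberg's method, was under 0.05. At 10 against 2 months 45 members rose, or 34.9%, where 19.0% of all tested genes did, and 2 members fell, or 1.55%, where 11.4% of all tested genes did. The median log2 change was 0.12 for the members and 0.04 for all tested genes. The 2 members that fell were Snrpc and Snrpd2. Without 20-month replicate 2 the count of members that fell was 4, where 12.3% of all tested genes fell. The F test for any difference among the ages called 94 of the 129 members, beside 75.4% of all tested genes.

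At 20 against 2 months 54 members rose, or 41.9%, where 18.6% of all tested genes did, and 35 fell, or 27.1%, where 49.6% of all tested genes did. At 20 against 10 months 35 members rose, where 11.4% of all tested genes did, and 41 fell, where 53.3% did. The members' median log2 changes were 0.06 and −0.03 in these comparisons, against −0.20 and −0.23 for all tested genes, so the deposited FPKM of the median gene was lower at 20 months. Median-of-ratios scaling, which sets the median gene near 0, moved the split towards rises. On scaled values 78 members rose and 13 fell at 20 against 2 months, with 31.1% and 31.2% of all tested genes. At 20 against 10 months 76 rose and 10 fell on scaled values, with 26.8% and 25.7% of all. The comparison of 10 with 2 months moved less, with 37 members up and 4 down, beside 15.1% and 14.5% of all.

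Some changes held whichever way the libraries were scaled. Under each of 4 scalings (as deposited, median-of-ratios, quantile and length-centred values, the last chosen after seeing the data) 35 members rose and 2 fell at 10 against 2 months, where 13.1% and 11.1% of all tested genes did. At 20 against 2 months 53 rose and 11 fell, where 17.8% and 28.5% did, and at 20 against 10 months 35 rose and 10 fell, where 11.0% and 21.0% did. In what follows, "under every scaling" means under these 4. The counts of each role group below stand beside the shares of all tested genes. On deposited values 19.0% rose and 11.4% fell at 10 against 2 months, and 18.6% and 49.6% did at 20 against 2 months. Changes of at least 2-fold at 20 against 2 months, 1 or more on the log2 scale, were found for 7 members that rose and 2 that fell, beside 2.8% and 3.2% of all tested genes. The 2 that fell were the heat shock gene LOC108348108 and LOC100359574, neither of which is in a role group. Among the 7 that rose, Snrpg and LOC687679 are 2 rows for SmG, a protein of the Sm ring. At 20 against 10 months 3 rose and the same 2 fell by at least 2-fold, beside 1.3% and 1.62%. At 10 against 2 months none did, beside 0.282% and 0.325%. Without 20-month replicate 3, the library with the most muscle RNA, 52 members rose and 34 fell at 20 against 2 months, and 29 rose and 38 fell at 20 against 10 months. Of all tested genes 18.2% rose and 48.1% fell in the first comparison, and 11.4% and 52.0% did in the second.

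**Figure D1:**
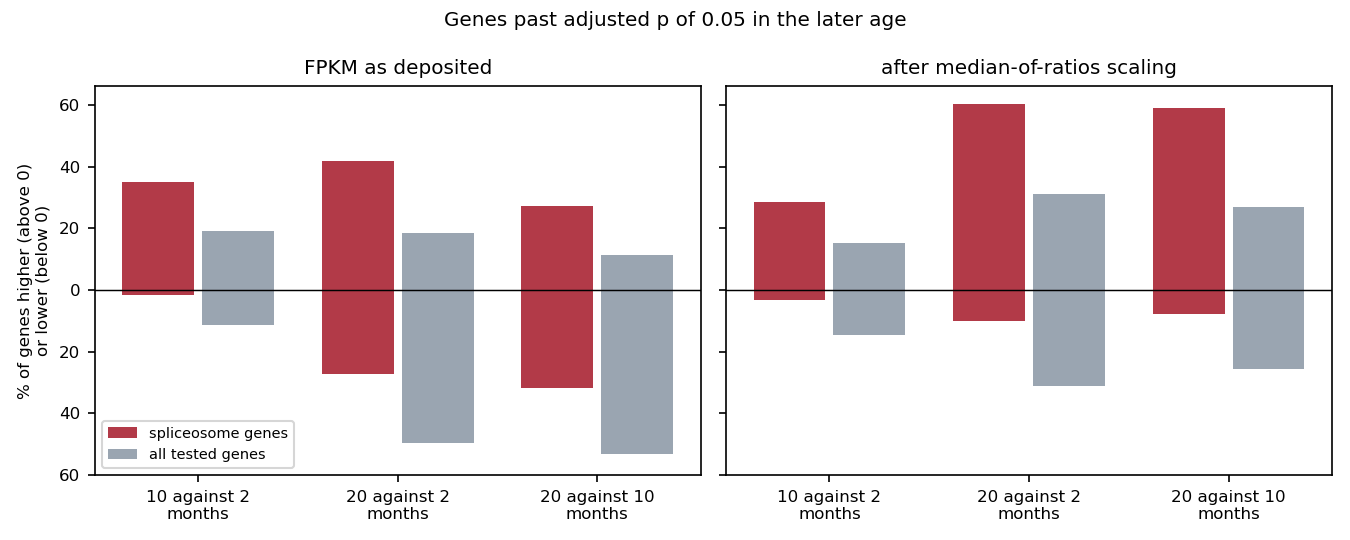
Percentage of the 129 spliceosome genes and of the 11708 tested genes past an adjusted p of 0.05, with genes higher at the later age drawn above 0 and genes lower at it drawn below 0, for deposited FPKM and for scaled values. At 20 against 2 months 41.9% of the members rose on deposited values, where 18.6% of all tested genes did, and scaling moved both sets towards rises.

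**Figure D2:**
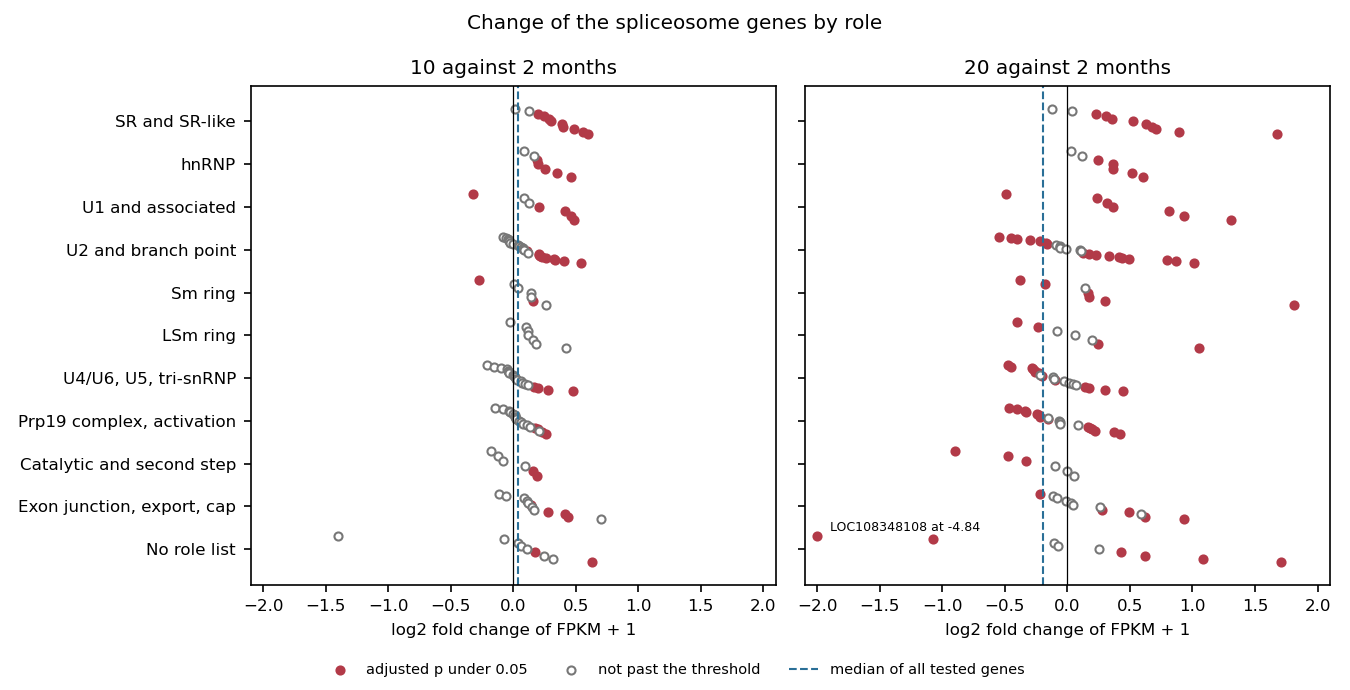
Log2 fold change (of FPKM + 1) of each spliceosome gene at 10 and at 20 against 2 months by role, with called genes filled, others open and the median of all tested genes dashed. Called SR, hnRNP and U1 genes other than Snrpc lie right of 0, and the tri-snRNP, Prp19 and U2 groups have called genes on both sides at 20 months. LOC108348108 at 20 against 2 months lies beyond the axis and is drawn at its edge with its value, −4.84.

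The SR and SR-like proteins bind exons and recruit U1 and U2AF. Of the 11 genes, 9 rose and 0 fell at 10 against 2 months and 9 rose and 0 fell at 20 against 2 months by limma, with 0 negative changes at an unadjusted p under 0.05 in either comparison. These 9 rises in each comparison held under every scaling. At 20 against 10 months 7 rose and 1 fell, against 10 and 0 on scaled values. The summed FPKM of the group was 483 ± 11.5 (2 months), 639.5 ± 11.5 (10 months) and 903 ± 18.4 (20 months), with the SD of 3 libraries. Srsf5 made up the largest part of it. Srsf5 had 134, 138 and 130.0 FPKM (2 months), 197, 204 and 193 (10 months) and 425, 417 and 448 (20 months). The ages did not overlap, and Srsf5 was higher by 0.56 ± 0.04 (adjusted p = 2.81e-05) on the log2 scale, given with its SE, at 10 against 2 months, by 1.67 ± 0.04 (adjusted p = 1.07e-08) at 20 against 2 months and by 1.11 ± 0.04 (adjusted p = 2.56e-07) at 20 against 10 months. No other member had a smaller adjusted p at 20 against 2 months. In the deposited table, whose genome build no source used here names, the gene lies at chr6:104611026-104615302 on the plus strand, with 8 exons.

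Srsf6, an exon-binding activator, had 24.4, 24.2 and 23.3 FPKM (2 months), 37.2, 37.0 and 35.8 (10 months) and 47.6, 42.9 and 45.4 (20 months), and was higher by 0.89 ± 0.04 (adjusted p = 3.9e-07) at 20 against 2 months. Srsf1, one of the first SR proteins described, had 21.2, 21.5 and 19.7 FPKM (2 months), 28.9, 28.0 and 26.6 (10 months) and 33.7, 33.5 and 36.6 (20 months), a rise of 0.71 ± 0.05 (adjusted p = 3.56e-06). In both genes each age lay above the one before it with no overlap. Srsf2, which also acts in transcription, followed another course, with 94.5, 96.8 and 93.5 FPKM (2 months), 127, 125 and 122 (10 months) and 117, 123 and 113 (20 months). Srsf3, the smallest of the SR proteins, had 35.4, 34.8 and 35.5 FPKM (2 months), 43.0, 43.4 and 43.2 (10 months) and 42.7, 43.0 and 39.0 (20 months). Both rose at 10 against 2 months, Srsf2 by 0.39 ± 0.04 (adjusted p = 0.000114) and Srsf3 by 0.29 ± 0.04 (adjusted p = 0.000972). Neither passed the test at 20 against 10 months on deposited values, with −0.08 ± 0.04 (adjusted p = 0.0747) for Srsf2 and −0.06 ± 0.04 (adjusted p = 0.25) for Srsf3, and scaled values gave 0.19 and 0.21, so the direction of that step depends on the scaling. Without 20-month replicate 2 the change of Srsf2 had an adjusted p of 0.0201. Tra2a, an SR-like splicing activator, averaged 35.6 ± 1.20 FPKM (2 months), 50.2 ± 0.595 (10 months) and 55.8 ± 4.25 (20 months), with the SD of 3 libraries, and rose by 0.49 ± 0.05 (adjusted p = 0.000286) at 10 against 2 months. Srsf4 and Srsf9, named because they were the 2 genes of the group that passed the test in neither comparison with 2 months, averaged 21.5 ± 0.683 FPKM (2 months), 21.8 ± 0.256 (10 months) and 22.1 ± 1.27 (20 months) and 18.5 ± 1.60 FPKM (2 months), 20.1 ± 0.688 (10 months) and 16.9 ± 1.69 (20 months). Srsf9 was the gene that fell at 20 against 10 months, by 0.24 ± 0.08 (adjusted p = 0.0229) on deposited values with 0.01 on scaled values.

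**Figure D3:**
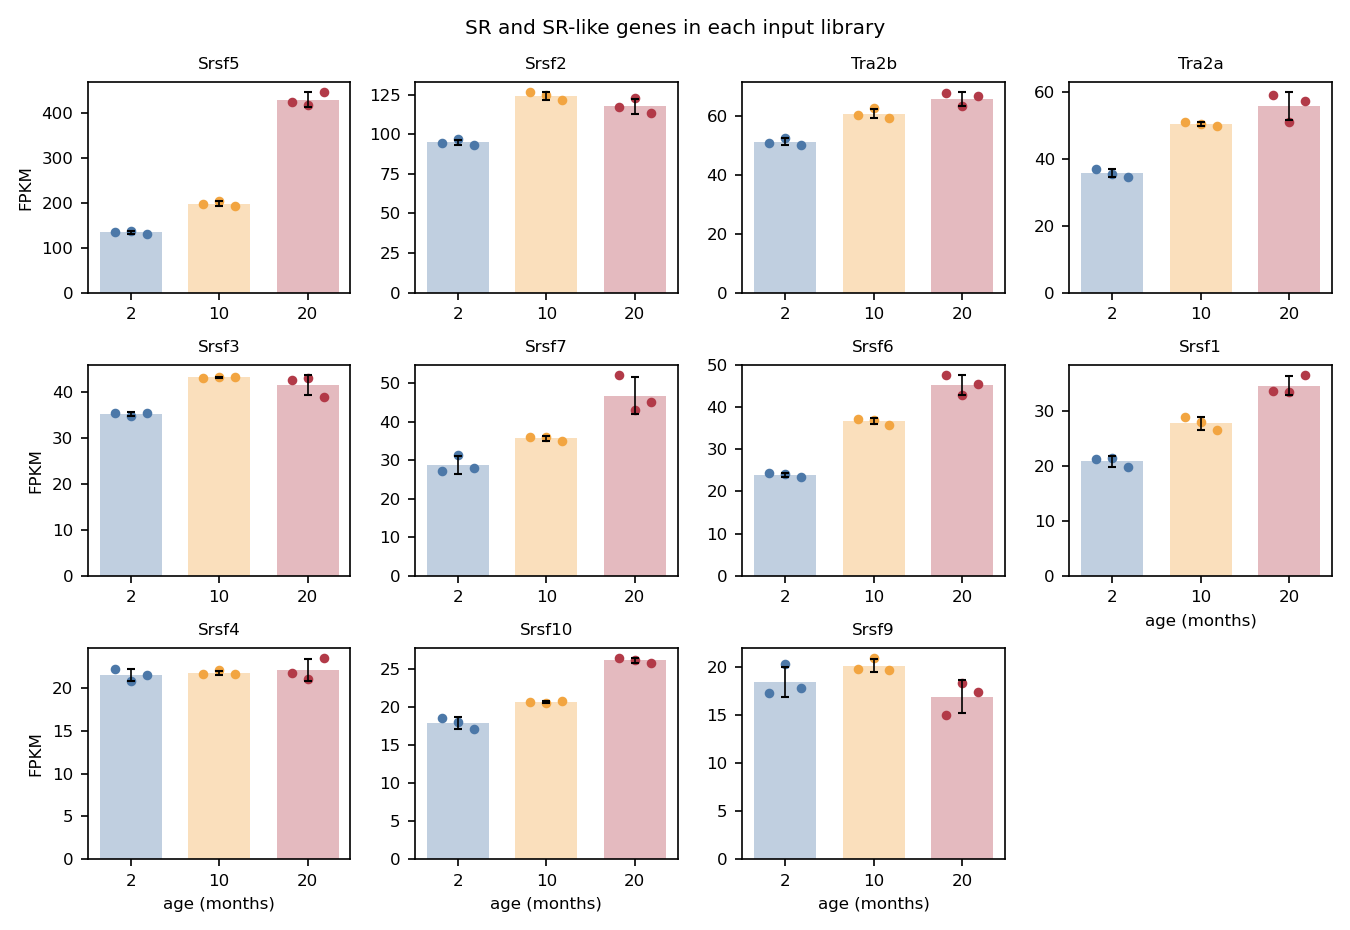
FPKM of the 11 SR and SR-like genes in each of the 9 input libraries (points), with the mean (bar) and SD (error bar) of the 3 libraries per age and an axis from 0 in each panel. Srsf5 reached 417 to 448 FPKM at 20 months, above 193 to 204 at 10 months and 130.0 to 138 at 2 months.

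The 250 bases before the transcription start of 4 members are shown from RefSeq (build GRCr8). Srsf5, the helicase gene Ddx39b and the U1 gene Snrnp70 were chosen as rises of at least 2-fold at 20 against 2 months, and the second-step gene Cdc40 as the largest fall among members with a role list. Capitals mark CCGGAAG, a core bound by ETS factors, and the palindromic site of the factor NRF1, on either strand. The windows are chr6:106336506-106336755 on the plus strand and chr20:3589652-3589901, chr1:105012852-105013101 and chr20:45907979-45908228 on the minus strand, each written 5′ to 3′ along its gene.
Srsf5: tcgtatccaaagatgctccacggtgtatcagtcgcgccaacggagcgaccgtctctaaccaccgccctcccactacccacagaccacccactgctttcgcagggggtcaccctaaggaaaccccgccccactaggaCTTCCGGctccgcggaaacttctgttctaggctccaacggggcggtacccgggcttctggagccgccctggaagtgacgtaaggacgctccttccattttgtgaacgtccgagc
Ddx39b: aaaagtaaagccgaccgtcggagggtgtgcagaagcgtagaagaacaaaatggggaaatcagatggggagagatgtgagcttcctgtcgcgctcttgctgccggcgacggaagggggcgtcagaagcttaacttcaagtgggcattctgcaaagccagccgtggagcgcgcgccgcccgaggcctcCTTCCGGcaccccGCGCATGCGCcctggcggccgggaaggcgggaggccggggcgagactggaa
Snrnp70: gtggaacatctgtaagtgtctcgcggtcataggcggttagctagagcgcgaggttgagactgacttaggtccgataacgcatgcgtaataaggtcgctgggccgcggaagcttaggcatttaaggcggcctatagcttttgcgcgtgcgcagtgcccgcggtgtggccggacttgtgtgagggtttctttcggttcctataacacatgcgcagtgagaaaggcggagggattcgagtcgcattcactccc
Cdc40: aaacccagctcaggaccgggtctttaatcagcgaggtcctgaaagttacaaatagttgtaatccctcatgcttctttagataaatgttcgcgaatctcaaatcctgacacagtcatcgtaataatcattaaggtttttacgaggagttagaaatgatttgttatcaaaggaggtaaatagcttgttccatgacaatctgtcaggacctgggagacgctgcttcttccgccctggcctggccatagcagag
Srsf5 holds 1 ETS core, Ddx39b holds 1 ETS core and 1 NRF1 site, and Snrnp70 and Cdc40 hold neither exact spelling in these windows. The Snrnp70 window does hold near variants of the NRF1 letters, which were not counted. GC bases made up 61.2% of the Srsf5 window, 64.0% of that of Ddx39b, 56.0% of that of Snrnp70 and 43.6% of that of Cdc40.

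RefSeq windows of 300 bases, from 250 before to 50 after the start, were matched for 111 of the 129 members and were 109 distinct windows. The ETS core CCGGAAG was in 38 of them, or 34.9%, against 9.22% of all 27457 windows of that length and 19.97% of the 8409 windows matched to tested genes, which include the members. The NRF1 site was in 6, or 5.505%, against 0.932% of all windows and 2.15% of those of tested genes. The CCAAT box, with the letters CCAAT, was in 46.8% of the members' windows, against 37.7% of all and 38.1% of tested windows. The SP1 box GGGCGG was in 48.6%, above the 34.9% of all windows and below the 64.9% of tested windows, and TATAAA was in 6.42%, below the 14.3% of all and near the 6.16% of tested windows. The E-box CACGTG was in 5.505%, against 6.65% and 10.03%, and the palindromic CRE in 5.505%, against 1.91% and 3.27%. A YY1 site and the TCGCGAGA element were each in 2 of the members' windows. Both strands were searched, and none of these motifs contains another. All windows include genes not expressed in NP, and only 71.8% of tested genes could be matched to a window. Of the 10 SR windows 3 held the ETS core. A match describes letters in a window, and its relation to the changes with age was not tested.

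In the U1 group of 7 genes 4 rose and 1 fell at 10 against 2 months, and 6 rose and 1 fell at 20 against 2 months. The calls at 20 against 2 months held under every scaling. Snrnp70 encodes a protein that binds U1 RNA and contacts SR proteins. It had 73.4, 71.0 and 71.0 FPKM (2 months), 100.2, 98.9 and 98.6 (10 months) and 177, 166 and 197 (20 months). With no overlap between ages, it was higher by 0.46 ± 0.06 (adjusted p = 0.000443) at 10 against 2 months, by 1.31 ± 0.06 (adjusted p = 1.93e-07) at 20 against 2 months and by 0.85 ± 0.06 (adjusted p = 4.41e-06) at 20 against 10 months. Snrpc, which encodes another protein of the same particle, was lower at the later ages. It had 31.2, 29.7 and 30.2 FPKM (2 months), 23.2, 24.7 and 24.5 (10 months) and 23.5, 20.6 and 20.0 (20 months). It fell by 0.32 ± 0.06 (adjusted p = 0.00389) at 10 against 2 months and fell by 0.49 ± 0.06 (adjusted p = 7.57e-05) at 20 against 2 months, under every scaling. Its change at 20 against 10 months was −0.17 ± 0.06 (adjusted p = 0.0298) on deposited values and 0.09 on scaled values, and the call was lost without 10-month replicate 2, 10-month replicate 3, 20-month replicate 2 or 20-month replicate 3 (adjusted p 0.0796 to 0.0902). The helicase gene Ddx5, the highest of the group, averaged 145 ± 2.18 FPKM (2 months), 168 ± 2.11 (10 months) and 181 ± 3.29 (20 months), with the SD of 3 libraries, and rose by 0.32 ± 0.03 (adjusted p = 1e-05) at 20 against 2 months. Its libraries did not overlap between any ages.

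The U2 and branch point group of 24 genes had called changes in both directions at 20 against 2 months. At 10 against 2 months 10 rose and 0 fell by limma, with 0 negative changes at an unadjusted p under 0.05. Of them 10 rose and 7 fell at 20 against 2 months on deposited values and 16 and 2 did on scaled values. Of all tested genes 18.6% rose and 49.6% fell there on deposited values and 31.1% and 31.2% on scaled values. Falls were thus less common in the group than among all tested genes. Ddx39b encodes a helicase that helps load U2 and later takes part in RNA export. It had 63.8, 61.4 and 65.0 FPKM (2 months), 84.3, 83.4 and 85.3 (10 months) and 130.0, 125 and 131 (20 months), and was higher by 1.01 ± 0.03 (adjusted p = 5.74e-08) at 20 against 2 months. U2af1, the small U2AF subunit, which reads the AG at the intron's end, had 40.4, 36.8 and 40.2 FPKM (2 months), 49.9, 51.9 and 47.3 (10 months) and 69.2, 66.8 and 69.9 (20 months), a rise of 0.80 ± 0.05 (adjusted p = 1.2e-06). Neither gene overlapped between ages. The large subunit U2af2 moved less, averaging 39.1 ± 0.820 FPKM (2 months), 41.6 ± 0.599 (10 months) and 44.2 ± 0.789 (20 months), with the SD of 3 libraries, a rise of 0.17 ± 0.03 (adjusted p = 0.00114). U2surp, which encodes a U2-associated protein, averaged 12.4 ± 0.492 FPKM (2 months), 18.5 ± 0.931 (10 months) and 23.5 ± 0.901 (20 months) and rose by 0.54 ± 0.05 (adjusted p = 0.000119) at 10 against 2 months and by 0.87 ± 0.05 (adjusted p = 1.03e-06) at 20 against 2 months.

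Within the SF3 complexes, which hold U2 at the branch point, members differed in direction. Sf3b1, the large scaffold subunit, had 67.8, 68.2 and 67.9 FPKM (2 months), 80.3, 80.4 and 79.4 (10 months) and 96.9, 94.3 and 96.4 (20 months). It rose by 0.49 ± 0.03 (adjusted p = 6.89e-07) at 20 against 2 months, and its libraries did not overlap between ages. Sf3b4, a small subunit, had 44.6, 43.6 and 41.9 FPKM (2 months), 41.4, 40.3 and 43.4 (10 months) and 30.8, 30.1 and 27.1 (20 months). Its earlier ages overlapped and lay above every 20-month library, and it fell by 0.55 ± 0.05 (adjusted p = 1.98e-05) at 20 against 2 months. Sf3b4 and Sf3a1 were the 2 genes of the group that fell under every scaling in this comparison. Sf3a1, named for that reason after its values were seen, averaged 9.45 ± 0.359 FPKM (2 months), 9.14 ± 0.245 (10 months) and 6.66 ± 0.701 (20 months), with the SD of 3 libraries, and fell by 0.45 ± 0.07 (adjusted p = 0.000336).

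Of the 7 Sm ring genes, 1 rose and 1 fell at 10 against 2 months and 4 rose and 2 fell at 20 against 2 months, against 5 and 0 on scaled values. These counts take SmG from the row Snrpg alone. They leave out LOC687679, a row with no role list that is annotated as similar to SmG, whose values are given below. Snrpd2, for the SmD2 protein, was lowest at the middle age. It had 45.7, 50.04 and 44.9 FPKM (2 months), 37.4, 41.4 and 36.9 (10 months) and 55.5, 51.2 and 52.1 (20 months). The 10-month libraries lay below all others, and the gene fell by 0.27 ± 0.06 (adjusted p = 0.00785) at 10 against 2 months and was higher by 0.45 ± 0.06 (adjusted p = 0.000177) at 20 against 10 months, both under every scaling. Its change at 20 against 2 months was 0.17 ± 0.06 (adjusted p = 0.0264), and the call was lost without 2-month replicate 1, 2-month replicate 3 or 20-month replicate 1 (adjusted p 0.0808 to 0.0909) and with array weights (adjusted p = 0.0868). Snrpf, for SmF, averaged 34.6 ± 1.71 FPKM (2 months), 38.3 ± 3.20 (10 months) and 26.4 ± 2.61 (20 months), with the SD of 3 libraries, and fell by 0.52 ± 0.08 (adjusted p = 0.000433) at 20 against 10 months, also under every scaling.

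The SmG gene has more than 1 row in the table. The row named Snrpg (chr1:91588228-91588609, minus strand) has 1 exon, and LOC687679 (chr4:118167294-118174842, plus strand), which has no role list and which the table annotates as similar to SmG, has 4. Snrpg had 4.41, 4.50 and 5.15 FPKM (2 months), 5.80, 5.80 and 5.84 (10 months) and 21.9, 23.1 and 13.5 (20 months), a rise of 1.82 ± 0.17 (adjusted p = 1.38e-05) at 20 against 2 months. LOC687679 had 66.9, 67.1 and 66.2 FPKM (2 months), 73.2, 73.9 and 79.1 (10 months) and 135, 146 and 148 (20 months), a rise of 1.08 ± 0.04 (adjusted p = 1.34e-07). Both were higher in every 20-month library than in any earlier one, and both rose under every scaling at 20 against 2 months. Every library of LOC687679 lay above 46.1 FPKM, the highest mean of any gene in the Sm ring group. The counts and the summed FPKM of that group thus leave out the higher of these SmG rows. How reads were divided between such copies is not stated in what was used here, so the level of each row is uncertain. The change of Snrpg at 10 against 2 months, 0.26 ± 0.17 (adjusted p = 0.264), had an adjusted p of 0.0105 without 20-month replicate 3, and its change at 20 against 2 months was then 2.05.

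In the LSm ring of 7 genes 0 rose and 0 fell by limma at 10 against 2 months, with 2 higher and 0 lower at an unadjusted p under 0.05. Of them 2 rose and 2 fell at 20 against 2 months, against 4 and 0 on scaled values. Lsm5 (ENSRNOG00000042126), a ring subunit, had 6.32, 5.23 and 7.41 FPKM (2 months), 7.86, 11.7 and 7.15 (10 months) and 15.2, 15.1 and 12.0 (20 months), a rise of 1.05 ± 0.18 (adjusted p = 0.000604) at 20 against 2 months under every scaling. Its 20-month libraries stood clear of the others, and the earlier ages overlapped. Lsm4 averaged 22.9 ± 0.895 FPKM (2 months), 24.9 ± 0.657 (10 months) and 19.3 ± 1.38 (20 months), with the SD of 3 libraries, and fell by 0.23 ± 0.05 (adjusted p = 0.00444) at 20 against 2 months on deposited values, with −0.01 on scaled values, where it did not pass the test. Lsm3, the highest of the ring, averaged 37.0 ± 2.25 FPKM (2 months), 41.5 ± 2.82 (10 months) and 42.6 ± 5.37 (20 months), with overlapping libraries. It did not pass the test at 20 against 2 months on deposited values (0.19 ± 0.09, adjusted p = 0.083), and did so without 20-month replicate 2 (adjusted p = 0.00922) and on scaled values (0.42).

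In the tri-snRNP group of 20 genes, which brings U4/U6 and U5 into the assembly, 4 rose and 0 fell at 10 against 2 months by limma, with 0 negative changes at an unadjusted p under 0.05. Of them 4 rose and 9 fell at 20 against 2 months on deposited values and 9 and 2 did on scaled values, so the split of the group depends on the scaling. Of all tested genes 18.6% rose and 49.6% fell there on deposited values and 31.1% and 31.2% on scaled values. The deposited counts of the group lay near those shares. The 2 genes that fell under every scaling in this comparison were Eftud2 and Snu13. Eftud2, the U5 GTPase that takes part in spliceosome rearrangement, had 15.9, 15.5 and 16.6 FPKM (2 months), 15.8, 15.2 and 15.6 (10 months) and 11.5, 11.4 and 11.5 (20 months), and fell by 0.45 ± 0.04 (adjusted p = 1.08e-05). Snu13, whose protein binds U4 RNA and box C/D small nucleolar RNAs, had 85.8, 85.1 and 80.1 FPKM (2 months), 77.98, 85.9 and 91.8 (10 months) and 61.4, 60.9 and 57.8 (20 months), and fell by 0.47 ± 0.06 (adjusted p = 9.35e-05). In both genes the earlier ages overlapped and lay above every 20-month library. LOC100359574, a row of 1 exon with no role list that the table annotates as like NHP2L1, an older name of Snu13, had 18.9, 17.7 and 17.3 FPKM (2 months), 18.7, 18.4 and 19.2 (10 months) and 8.03, 7.59 and 8.43 (20 months), and fell by 1.07 ± 0.05 (adjusted p = 3.11e-07). The division of reads between these copies is uncertain in the same way.

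Prpf8, the core of the U5 particle, had 62.3, 64.0 and 63.8 FPKM (2 months), 70.1, 70.2 and 73.0 (10 months) and 58.5, 57.8 and 60.9 (20 months). It rose by 0.16 ± 0.03 (adjusted p = 0.00591) at 10 against 2 months on deposited values, and the call was lost on length-centred values (0.09, adjusted p = 0.0548). Its change at 20 against 2 months was −0.10 ± 0.03 (adjusted p = 0.0225) on deposited values and 0.13 on scaled values, so no direction is given, and the call on deposited values was lost without 2-month replicate 2, 2-month replicate 3 or 20-month replicate 2 (adjusted p 0.0612 to 0.0728). Prpf38b, a factor of spliceosome activation, averaged 22.7 ± 0.567 FPKM (2 months), 32.1 ± 1.71 (10 months) and 31.3 ± 1.47 (20 months), with the SD of 3 libraries, and rose by 0.48 ± 0.05 (adjusted p = 0.000214) at 10 against 2 months and by 0.44 ± 0.05 (adjusted p = 4.99e-05) at 20 against 2 months.

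Of the 19 genes listed under the Prp19 complex and activation, 4 rose and 0 fell at 10 against 2 months by limma, with 1 negative change at an unadjusted p under 0.05. The list includes Rbmxl1, named as like the hnRNP gene Rbmx, so these are counts of a list rather than of the complex alone. The group had 6 rises and 8 falls at 20 against 2 months, against 8 and 3 on scaled values. Of all tested genes 18.6% rose and 49.6% fell there, or 31.1% and 31.2% on scaled values. Falls were thus no more common in the group than among all tested genes. Cdc5l, a core protein of the complex, had 19.3, 20.0 and 19.3 FPKM (2 months), 20.2, 21.0 and 20.2 (10 months) and 13.7, 15.3 and 14.6 (20 months). Every 20-month library lay below every earlier one, and the gene fell by 0.40 ± 0.05 (adjusted p = 5.02e-05) at 20 against 2 months. Cdc5l and Xab2 were the 2 genes of the group that fell under every scaling in this comparison. Xab2, named for that reason after its values were seen, averaged 13.7 ± 1.22 FPKM (2 months), 13.3 ± 0.781 (10 months) and 9.58 ± 0.741 (20 months), with the SD of 3 libraries, and fell by 0.47 ± 0.08 (adjusted p = 0.000503). Syf2, the highest of the group and also a part of the complex, averaged 58.1 ± 2.102 FPKM (2 months), 65.8 ± 1.42 (10 months) and 75.4 ± 3.73 (20 months) and rose by 0.37 ± 0.04 (adjusted p = 6.81e-05) at 20 against 2 months, under every scaling.

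Of the 6 genes of the catalytic helicases and the second step, 2 rose and 0 fell at 10 against 2 months by limma, with 1 negative change at an unadjusted p under 0.05. The group had 0 rises and 3 falls at 20 against 2 months, with 0 positive changes at an unadjusted p under 0.05, against 2 and 3 on scaled values. Of all tested genes 18.6% rose and 49.6% fell there on deposited values and 31.1% and 31.2% on scaled values. The 3 deposited falls among 6 genes lay near that share. Cdc40, a second-step factor known in yeast as Prp17, had 9.06, 9.21 and 9.67 FPKM (2 months), 7.68, 8.99 and 7.76 (10 months) and 4.78, 4.44 and 4.38 (20 months). Each age lay below the one before it with no overlap, and the gene fell by 0.90 ± 0.07 (adjusted p = 3.62e-06) at 20 against 2 months and fell by 0.72 ± 0.07 (adjusted p = 2.24e-05) at 20 against 10 months. Its change at 10 against 2 months was −0.18 ± 0.07 (adjusted p = 0.0724), which had an adjusted p of 0.0251 without 10-month replicate 2 and of 0.0277 to 0.0382 under the 3 other scalings. Prpf18, another second-step factor and with Cdc40 the other gene of the group that fell under every scaling at 20 against 2 months, was named after its values were seen. It averaged 10.4 ± 0.550 FPKM (2 months), 9.43 ± 0.401 (10 months) and 7.19 ± 0.475 (20 months), with the SD of 3 libraries, and fell by 0.47 ± 0.06 (adjusted p = 0.000114). Dhx8, the helicase that releases the spliced RNA, averaged 13.1 ± 0.323 FPKM (2 months), 14.0 ± 0.313 (10 months) and 10.2 ± 0.0218 (20 months) and fell by 0.43 ± 0.04 (adjusted p = 2.21e-05) at 20 against 10 months, under every scaling. Slu7, the highest of the group, averaged 30.0 ± 0.595 FPKM (2 months), 33.6 ± 0.392 (10 months) and 31.2 ± 1.11 (20 months). Its change at 20 against 10 months was −0.10 ± 0.04 (adjusted p = 0.0301) on deposited and 0.16 on scaled values, and the call was lost without 10-month replicate 1, 10-month replicate 2 or 20-month replicate 1 (adjusted p 0.0726 to 0.0865).

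Of the 12 exon junction, export and cap-binding genes, 4 rose and 0 fell at 10 against 2 months by limma, with 1 negative change at an unadjusted p under 0.05. Of them 4 rose and 1 fell at 20 against 2 months, against 6 and 0 on scaled values. Eif4a3, the helicase of the exon junction complex, had 47.5, 44.6 and 45.9 FPKM (2 months), 50.9, 50.1 and 51.7 (10 months) and 62.1, 65.5 and 67.9 (20 months), a rise of 0.49 ± 0.04 (adjusted p = 7.39e-06) at 20 against 2 months. Its libraries did not overlap between ages. Its change at 10 against 2 months was 0.14 ± 0.04 (adjusted p = 0.0272), and the call was lost without 2-month replicate 2, 2-month replicate 3, 10-month replicate 1, 10-month replicate 2 or 10-month replicate 3 (adjusted p 0.058 to 0.0993). It was also lost on median-of-ratios values (0.11, adjusted p = 0.111) and on length-centred values (0.12, adjusted p = 0.0847). Thoc2, the scaffold of the THO complex that couples transcription to export, averaged 2.77 ± 0.385 FPKM (2 months), 4.10 ± 0.247 (10 months) and 6.19 ± 0.479 (20 months), with the SD of 3 libraries, and rose by 0.93 ± 0.09 (adjusted p = 1.69e-05) at 20 against 2 months. Acin1, the highest of the group, averaged 54.9 ± 0.827 FPKM (2 months), 66.7 ± 0.759 (10 months) and 67.0 ± 2.15 (20 months) and rose by 0.28 ± 0.03 (adjusted p = 5.97e-05).

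The cap-binding gene Ncbp2 is in the table as 2 rows, and 2-month replicate 2 divided between them unlike the other libraries of its age. The row ENSRNOG00000048589 had 34.6, 8.78 and 35.3 FPKM at 2 months, and the row ENSRNOG00000001746 had 22.7, 30.3 and 22.3. The bases on both rows together were 0.293, 0.286 and 0.275 megabases in the same libraries, so the sum did not show the drop of the first row. Neither row passed the test in any comparison.

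Of the 7 hnRNP genes, 5 rose and 0 fell at 10 against 2 months and 5 rose and 0 fell at 20 against 2 months by limma. These rises held under every scaling, and no gene of the group had a negative change on deposited values in either comparison. The group was listed by gene name. It leaves out AABR07073038, a row annotated as poly(rC) binding protein 1 with no role list, which averaged lower at both later ages. Its values are given below. Hnrnpa1, whose protein often silences exons, had 106, 109 and 115 FPKM (2 months), 151, 150.3 and 153 (10 months) and 153, 168 and 181 (20 months). The 2-month libraries lay below all others, and the gene rose by 0.46 ± 0.06 (adjusted p = 0.000513) at 10 against 2 months and by 0.60 ± 0.06 (adjusted p = 1.74e-05) at 20 against 2 months. Its change of 0.14 ± 0.06 (adjusted p = 0.054) at 20 against 10 months missed the threshold, with an adjusted p of 0.00361 without 20-month replicate 1 and of 0.000682 to 0.0091 under the 3 other scalings. Hnrnpm, which encodes another splicing repressor, averaged 49.7 ± 0.963 FPKM (2 months), 57.2 ± 1.84 (10 months) and 64.4 ± 1.23 (20 months), with the SD of 3 libraries, and rose by 0.37 ± 0.03 (adjusted p = 1.62e-05) at 20 against 2 months. Hnrnpk, the highest of the group, averaged 166 ± 5.52 FPKM (2 months), 176 ± 5.79 (10 months) and 169 ± 2.79 (20 months) and did not pass the test at 20 against 2 months on deposited values (0.03 ± 0.04, adjusted p = 0.481), but did on scaled values (0.26). The summed FPKM of the group was 549 ± 12.6 (2 months), 646 ± 10.3 (10 months) and 693 ± 21.0 (20 months).

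The 9 genes with no role list include rows with placeholder names. Rbm25l1, a row of 1 exon named as like RBM25, a regulator of alternative splicing, had 5.67, 3.36 and 2.83 FPKM (2 months), 6.33, 5.29 and 7.99 (10 months) and 14.3, 15.02 and 14.8 (20 months), a rise of 1.71 ± 0.19 (adjusted p = 5.5e-05) at 20 against 2 months. Its 20-month libraries lay above all others. AABR07073038 (ENSRNOG00000017708), annotated as poly(rC) binding protein 1, averaged 129 ± 2.96 FPKM (2 months), 122 ± 2.09 (10 months) and 119.9 ± 11.3 (20 months), with the SD of 3 libraries. It did not pass the test at 20 against 2 months (−0.10 ± 0.06, adjusted p = 0.146), and had an adjusted p of 0.00268 without 20-month replicate 2. The heat shock gene LOC108348108 had 89.5, 85.8 and 66.9 FPKM (2 months), 29.0, 32.2 and 28.0 (10 months) and 0.160, 0.156 and 15.8 (20 months). The highest 20-month value was in replicate 3, the library with the most muscle RNA. It fell by 4.84 ± 0.87 (adjusted p = 0.000933) at 20 against 2 months, with a change of −6.13 without that library. At 10 against 2 months the change of −1.40 had an adjusted p of 0.256 over all libraries and of 6.89e-05 without it. Leaving this gene out of the members gave 54 rises and 34 falls at 20 against 2 months. Of all 129 members, 9 have a main transcript of 1 exon, among them Snrpg, LOC100359574, Rbm25l1 and LOC108348108.

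Summed by role on deposited FPKM, the groups parted at 20 months. The SR group stood at 183 to 190.1% of its 2-month mean in the 20-month libraries and the U1 group at 149 to 160.0%. The hnRNP group stood at 123 to 130.1%, the U2 group at 115 to 117% and the exon junction group at 115 to 118%. The tri-snRNP group stood at 94.1 to 95.2% and the catalytic group at 85.0 to 88.2%, each below all of its own 2-month libraries on deposited values. These lower sums depended on the scaling: with each library divided by its median-of-ratios factor, an alternative for the sums chosen after seeing the data, the 20-month libraries stood at 109 to 113% in the tri-snRNP group, above its 2-month libraries, and at 98.3 to 104% in the catalytic group, against 98.4 to 102% in its 2-month libraries. The SR group was then at 216 to 225%. At 10 months the catalytic group was at 102 to 105% and the tri-snRNP group at 103 to 107%. A sum follows its high genes that change most, such as Srsf5 in the SR group and Snrnp70 in the U1 group. Ddx5, the highest gene of the U1 group, rose less than Snrnp70.

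**Figure D4:**
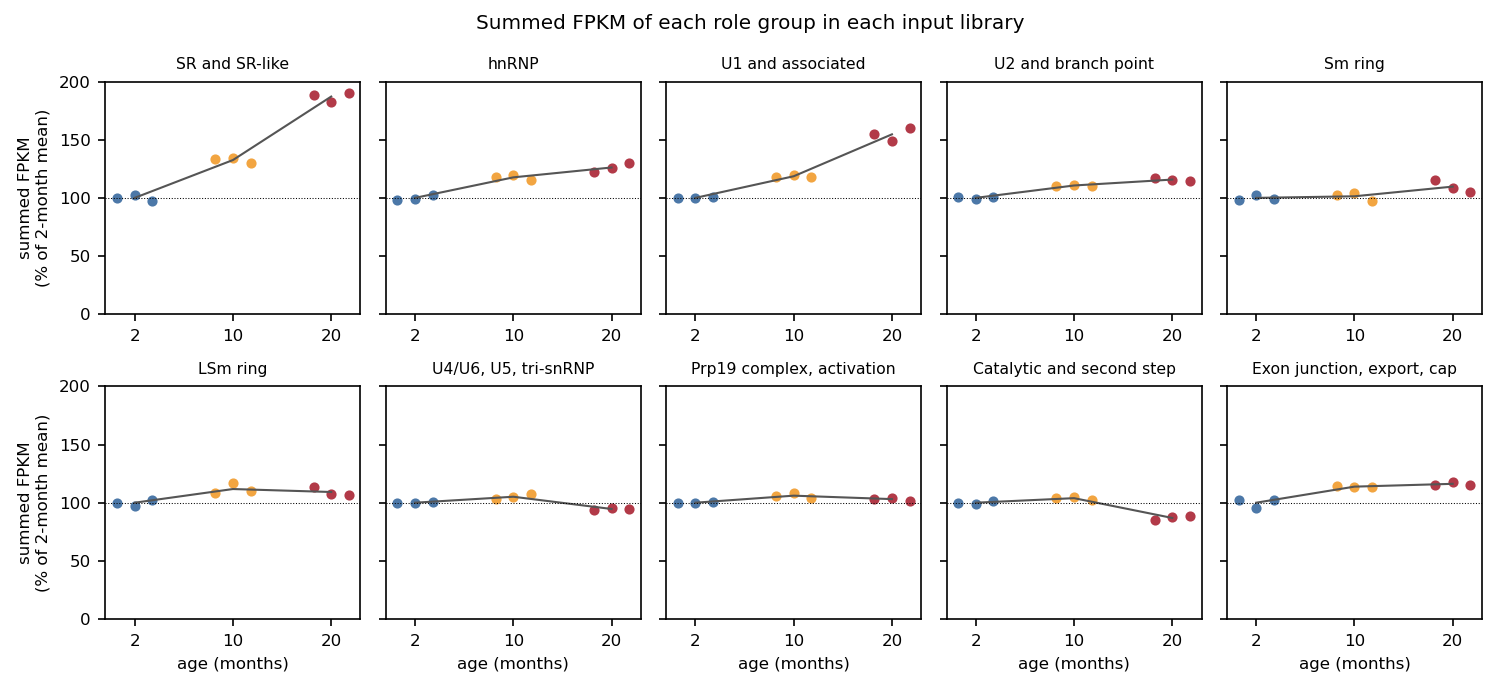
Summed FPKM of each role group in each input library as a percentage of the group's 2-month mean, with 3 libraries per age. The Sm ring sum holds the SmG row Snrpg and leaves out the higher SmG row LOC687679. The SR group stands at 183 to 190.1% and the U1 group at 149 to 160.0% at 20 months, and the catalytic group at 85.0 to 88.2%, or 98.3 to 104% on scaled values, so the place of that group below 100% depends on the scaling.

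Transcript use could be followed in the 32 members with at least 2 listed transcripts, 87 transcripts in all. In 13 of them 1 transcript held over 90% of the summed FPKM, and 45 transcripts of 19 genes met the limits of the test, namely 5 FPKM or more on average for the gene and an average share between 10 and 90%. The test was limma on the log2 ratio of a transcript to the gene's other transcripts. At 10 against 2 months it called 0 member transcripts, with 4 at an unadjusted p under 0.05, where 0.253% of all 2771 tested transcripts were called. At 20 against 2 months it called 4 in 2 genes, where 11.1% of all were called. At 20 against 10 months it called 1, where 7.98% of all were called. The F test over the 3 ages called 4 of the 45, where 8.44% of all were called. The count of 4 was 1 without 2-month replicate 1 or 2, 2 without 2-month replicate 3 or 10-month replicate 2 or 3, and 3 to 5 without each other library. Of all tested transcripts 3.86 to 9.60% were called in these fits. The count of 1 was 2 without 20-month replicate 3, where 4.87% of all were called.

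The 4 called transcripts were 2 of Ddx39b and both of Snrnp70. The 2 of Snrnp70 mirror each other, with log2 ratio changes of −0.49 and 0.49, so their 2 calls rest on 1 change. Among the 4, a transcript of Ddx39b had the smallest adjusted p. This transcript of 4 exons and 1484 bases (ENSRNOT00000087615) held 13.8, 14.3 and 14.1% (2 months), 15.03, 14.1 and 14.0% (10 months) and 5.14, 4.83 and 5.44% (20 months). The earlier ages overlapped and the 20-month libraries lay below both. Its log2 ratio fell by 1.59 ± 0.16 at 20 against 2 months (adjusted p = 0.0038) and fell by 1.61 ± 0.16 at 20 against 10 months (adjusted p = 0.00293), and both calls held without each library in turn. The transcript of 2 exons (ENSRNOT00000082233) held 22.0, 22.3 and 23.01% (2 months), 26.2, 26.1 and 26.7% (10 months) and 31.0, 29.5 and 32.1% (20 months), and rose by 0.62 ± 0.11 at 20 against 2 months (adjusted p = 0.0162), a call lost without 2-month replicate 1 (adjusted p = 0.0687) or 2 (adjusted p = 0.0575). A transcript of 10 exons held 40.8, 35.8 and 37.6% (2 months), 32.6, 33.4 and 28.0% (10 months) and 27.3, 32.3 and 24.0% (20 months), and did not pass the test (−0.68 ± 0.19, adjusted p = 0.067). The level of Ddx39b and its transcript shares thus both differed at 20 months. Its transcript FPKM did not add up to its gene FPKM. They summed to 284 on average over the libraries, where the gene row averaged 92.2, so the level and the shares rest on different scales. The same held for Snrnp70 and Srsf3, whose transcripts summed to 176.5 and 77.8 FPKM on average, above the averages of their gene rows. The 20-month libraries also had a longer estimated read length, and the part of read length in the shares was not tested.

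Snrnp70 has 2 listed transcripts, and the one of 9 exons (ENSRNOT00000049957) held 20.9, 20.6 and 20.9% (2 months), 27.5, 27.5 and 28.5% (10 months) and 27.3, 26.5 and 27.7% (20 months), the transcript of 10 exons holding the rest. The 2-month libraries lay below all others. Its log2 ratio rose by 0.49 ± 0.11 at 20 against 2 months (adjusted p = 0.03). The call was lost without any 1 of the 2-month libraries, 10-month replicate 2 or 3, or 20-month replicate 1 or 3, with changes of 0.47 to 0.49 and adjusted p of 0.0538 to 0.0964. It was also lost with only the 2 ages fitted (adjusted p = 0.0936) and with transcripts of genes at a summed FPKM of at least 1 (adjusted p = 0.0635). The change of 0.54 ± 0.11 at 10 against 2 months did not pass the test (adjusted p = 0.197). Smndc1, an SMN-related gene of the U2 group, had a transcript of 6 exons (ENSRNOT00000078670) at 47.3, 31.3 and 29.9% (2 months), 31.1, 36.8 and 34.5% (10 months) and 68.6, 64.5 and 48.5% (20 months). It missed the threshold at 20 against 2 months (1.42 ± 0.38, adjusted p = 0.0552) and had an adjusted p of 0.0331 without 20-month replicate 3. In Srsf3 the transcript of 3 exons (ENSRNOT00000092645) held 25.5, 25.3 and 25.2% (2 months), 26.7, 28.9 and 30.0% (10 months) and 21.2, 20.0 and 23.5% (20 months), and missed the threshold at 20 against 10 months (−0.53 ± 0.13, adjusted p = 0.0535). The named transcript of Bud31 averaged 14.0, 23.7 and 29.0% at 2, 10 and 20 months and that of Hnrnpm 49.3, 48.5 and 39.0%, with no call in any comparison. In LOC100911576 the transcript ENSRNOT00000060515 held 14.0, 3.19 and 7.95% (2 months), 78.1, 0 and 21.0% (10 months) and 58.7, 3.03 and 16.5% (20 months), so its libraries spread widely within each later age.

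**Figure D5:**
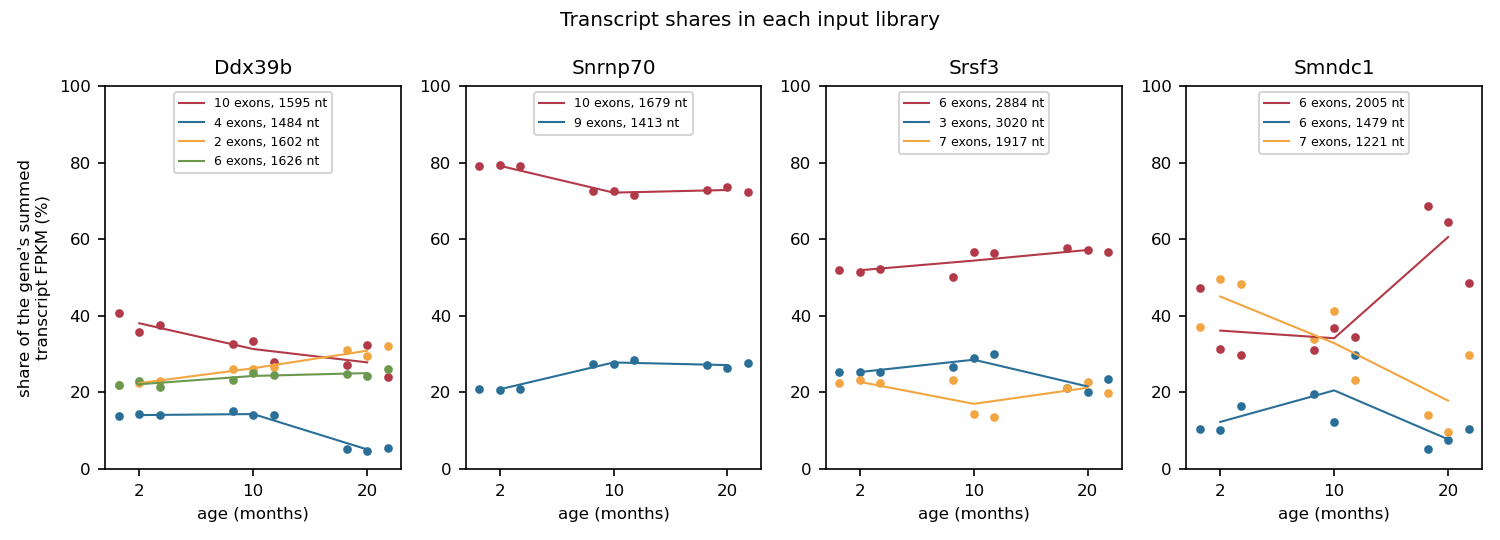
Share (%) of each gene's summed transcript FPKM held by each tested transcript of Ddx39b, Snrnp70, Srsf3 and Smndc1 in the 9 input libraries (points), with lines joining the means of each age. The 4-exon transcript of Ddx39b stands at 4.83 to 5.44% at 20 months, and the Smndc1 libraries vary widely within an age.

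Genes that act on or beside the spliceosome but are no members were read from 5 further lists, against the same background of all tested genes. Of all tested genes 19.0% rose and 11.4% fell at 10 against 2 months. At 20 against 2 months 18.6% rose and 49.6% fell, or 31.1% and 31.2% on scaled values. The kinases that phosphorylate SR proteins (5 tested of 7) had 2 rises and 0 falls at 10 against 2 months, and 2 rises and 2 falls at 20 against 2 months, against 3 and 1 on scaled values. Clk1 had 81.9, 85.0 and 79.7 FPKM (2 months), 116, 119 and 119 (10 months) and 97.1, 90.4 and 101 (20 months). It was highest at the middle age in every library, while Srsf5 was highest at 20 months. It fell by 0.29 ± 0.04 (adjusted p = 0.000363) at 20 against 10 months on deposited values, and its change was −0.03 and not called on scaled values. Srpk2, a kinase of another SR kinase family, averaged 28.8 ± 0.243 FPKM (2 months), 28.9 ± 0.567 (10 months) and 22.3 ± 0.867 (20 months), with the SD of 3 libraries. The proteins of the minor spliceosome, which handles a rare class of introns (10 tested of 10), had 3 rises and 0 falls at 10 against 2 months, and 6 rises and 2 falls at 20 against 2 months, against 7 and 1 on scaled values. Snrnp48, a protein of its U11/U12 particle, averaged 7.46 ± 0.207 FPKM (2 months), 10.6 ± 0.345 (10 months) and 17.95 ± 1.01 (20 months), a rise of 1.16 ± 0.05 (adjusted p = 2.32e-07) at 20 against 2 months. Zrsr2, which reads the 3′ splice site of such introns, averaged 5.003 ± 0.284 FPKM (2 months), 5.58 ± 0.0326 (10 months) and 8.20 ± 0.242 (20 months), a rise of 0.62 ± 0.05 (adjusted p = 8.24e-06). Across these 2 lists no gene had a negative change at an unadjusted p under 0.05 at 10 against 2 months.

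The Sm ring assembly list (13 tested of 14) had 1 rise and 2 falls at 10 against 2 months, and 2 rises and 8 falls at 20 against 2 months, against 5 and 4 on scaled values. In the latter comparison 49.6% of all tested genes fell on deposited values and 31.2% on scaled values. Prmt5, which methylates Sm proteins before assembly, had 19.4, 19.4 and 18.7 FPKM (2 months), 17.9, 19.1 and 19.3 (10 months) and 10.8, 10.6 and 9.61 (20 months). Every 20-month library lay below every earlier one, and it fell by 0.83 ± 0.05 (adjusted p = 1.34e-06) at 20 against 2 months on deposited values, with −0.62 on scaled values. Gemin5, which recognises the small nuclear RNA, averaged 3.49 ± 0.140 FPKM (2 months), 4.01 ± 0.179 (10 months) and 2.45 ± 0.114 (20 months), with the SD of 3 libraries. The nonsense-mediated decay list (12 tested of 12), part of which reads exon junction complexes, had 4 rises and 0 falls at 10 against 2 months, and 3 rises and 6 falls at 20 against 2 months, against 5 and 4 on scaled values. The 6 falls among 12 genes lay near the 49.6% of all tested genes that fell. Upf3b, which binds the exon junction complex, averaged 4.35 ± 0.0781 FPKM (2 months), 6.66 ± 0.529 (10 months) and 9.86 ± 0.334 (20 months), a rise of 1.02 ± 0.06 (adjusted p = 1.01e-06), and Smg9, a regulator of the decay kinase, averaged 10.9 ± 0.133 FPKM (2 months), 11.6 ± 0.218 (10 months) and 7.91 ± 0.236 (20 months), and fell by 0.42 ± 0.04 (adjusted p = 2.01e-05). The tissue-specific splicing regulators (14 tested of 22) had 6 rises and 0 falls, then 6 rises and 3 falls, against 7 and 3 on scaled values. Of these, Mbnl2 averaged 46.0 ± 0.569 FPKM (2 months), 63.7 ± 3.45 (10 months) and 66.4 ± 0.362 (20 months), a rise of 0.52 ± 0.04 (adjusted p = 4.98e-06), and Mbnl1 17.4 ± 0.855 FPKM (2 months), 26.7 ± 1.35 (10 months) and 21.9 ± 1.26 (20 months), a rise of 0.32 ± 0.06 (adjusted p = 0.000923). The decay and regulator lists had 0 negative changes at an unadjusted p under 0.05 at 10 against 2 months by limma.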

How the data were processed

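RNA of rat nucleus pulposus was sequenced as input libraries at 3 ages, with 3 libraries per age. The 9 immunoprecipitated libraries are not analysed here. Per the submitters' processing notes, the tools named are StringTie 1.3.4d, HISAT2 2.0.4, cutadapt 1.9, edgeR and DESeq2. No source used here names the genome build. The authors deposited FPKM per gene and per transcript, and coverage per transcript as a signal of mean reads per base, per the file headers. Depth was judged from the ratio of coverage to FPKM. Read length was estimated as the commonest number of bases, coverage times length, on sparsely covered transcripts.

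Genes with at least 1 FPKM in at least 3 of the 9 libraries (11708 genes) were fitted with limma 3.58.1 (R 4.3.3, eBayes with trend) on log2(FPKM + 1) in 1 fit over the ages, with Benjamini-Hochberg adjustment over all genes. The pseudocount understates changes of low genes. Transcript ratios had an offset of 0.5 and were fitted over all 2771 qualifying transcripts. The fits were tested on simulated data. Alternatives were other pseudocounts, filters and scalings, array weights, fits of 2 ages, a replicate block and leaving out each library.

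The members and all lists were chosen with earlier results of these data known. Genes were named by rule: the 4 largest called, non-overlapping rises and falls per comparison with a mean of at least 5 FPKM, in each role the 2 with the smallest F test p and the most abundant, 9 chosen core genes, and in other lists the 2 with the smallest F test p. Transcripts were named as the 6 genes with the smallest F test p and the 2 largest share changes per comparison. Other names are marked in the text, and 1 gene the rule names is not reported here. Promoter windows come from RefSeq (GRCr8), matched by gene ID, symbol or synonym.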

Additional observations from a re-analysis of the deposited data

How the results depend on the processing

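Members that fell at 10 against 2 months numbered 4, 5 and 5 on median-of-ratios, quantile and length-centred values. Of all tested genes 14.5, 14.5 and 14.6% fell there. At 20 against 2 months 13, 15 and 14 members fell, where 31.2, 34.4 and 31.1% of all did. At 20 against 10 months 76, 57 and 69 members rose, where 26.8, 22.7 and 25.5% of all did. In that comparison 10, 14 and 14 members fell, where 25.7, 28.6 and 24.4% of all did. Falls at 10 against 2 months were 5 with only 2 ages fitted and 5 with array weights, where 16.2% and 16.7% of all tested genes fell. Without each library in turn, rises numbered 37 to 47, 51 to 54 and 28 to 35 at 10 against 2, 20 against 2 and 20 against 10 months, and falls 2 to 4, 31 to 35 and 31 to 43. Of all tested genes 13.4 to 21.4%, 16.6 to 18.3% and 10.2 to 11.4% then rose. Those that fell were 7.93 to 13.4%, 45.5 to 50.2% and 48.7 to 53.7%. Isoform calls at 20 against 2 months were 2 with a summed FPKM of at least 1, 1 with only 2 ages and 1 to 5 without each library. Of all tested transcripts 6.41%, 5.27% and 3.86 to 9.60% were then called. At 20 against 10 months isoform calls were 3 with an offset of 2 and 1 to 2 without each library. Of all tested transcripts 8.77% and 2.71 to 7.25% were called there. Values that turned direction on median-of-ratios scaling were Snrpc 0.0861 (20 against 10 months), Slu7 0.156 (20 against 10 months), AABR07073038 0.235 (20 against 10 months), Prpf38b 0.226 (20 against 10 months), Hnrnpk 0.209 (20 against 10 months), Prpf8 0.127 (20 against 2 months), Prpf8 0.00110 (20 against 10 months), Srsf2 0.186 (20 against 10 months), Srsf3 0.206 (20 against 10 months). On quantile values they were Snrpc 0.0128 (20 against 10 months), Slu7 0.0420 (20 against 10 months), Prpf8 0.0429 (20 against 2 months). On length-centred values they were Slu7 0.144 (20 against 10 months), Prpf38b 0.242 (20 against 10 months), Hnrnpk 0.199 (20 against 10 months), Prpf8 0.164 (20 against 2 months), Prpf8 0.0722 (20 against 10 months), Srsf2 0.147 (20 against 10 months), Srsf3 0.214 (20 against 10 months). The causes were not tested. Pseudocounts of 0.1 and 5 left every gene named by rule on its side of the threshold. A filter of a mean FPKM of at least 5 did so for those it kept, and left Thoc2 and Gemin5 untested.

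Replicate numbers are shared between ages but did not pair the libraries: correlations of same-numbered deviations ran from −0.04 to 0.05. With the number as a replicate block, 40 members rose and 2 fell at 10 against 2 months, 55 and 35 at 20 against 2 months and 35 and 43 at 20 against 10 months, and isoform calls were 0, 1 and 1. Of all tested genes 17.0% rose and 10.2% fell, then 18.3% and 48.9%, then 11.4% and 52.4%. Of all tested transcripts 0.253%, 4.47% and 2.67% were called.

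With 3 libraries per age, small changes near the threshold depend on single libraries. FPKM give relative levels, and the scalings differ in how they centre them.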
